A study of Mus musculus with 2 samples.

Results

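The amino acid transporters of the renal proximal tubule were examined as a family of 10 genes, Slc6a19, Slc6a18, Slc6a20b, Slc7a9, Slc3a1, Slc7a13, Slc7a7, Slc7a8, Slc3a2 and Slc1a1. They were chosen by gene symbol, with earlier results of these data known, and all 10 of 10 were found among the 20002 genes measured. RNA-seq was performed on whole mouse kidney in 2 libraries, 1 Control and 1 Reg-2 CKO. In the Reg-2 CKO group, AAV9 carrying an shRNA against Regnase-2, a protein that degrades selected mRNAs, was given through the tail vein at 11 weeks of age, so the name CKO here stands for a knockdown and not for a deleted gene. No tubule-specific promoter is described for the vector, and its restriction to proximal tubules rests on the preference of AAV9 for these cells and on immunostaining of Regnase-2 beside a tubule lectin. Control mice also received AAV9, described as control shRNA in the sequencing methods and as empty vectors in the virus methods. The kidneys are given as 14 weeks old in the sequencing methods, whereas the virus methods give a harvest at 16 weeks. The study's mice are given as C57BL/6J, and RNA came from the left kidney, while sex and the number of mice behind a library are not stated for these libraries.

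With 1 library per group, no difference below has a replicate check and no p-value was computed; each describes these 2 libraries. Values are reads after a constant floor was removed from each library, 38851231 in Control and 43588721 in CKO. A log2 ratio is CKO over Control after scaling CKO by 0.667, the median gene ratio of the libraries, and each 95% Clopper-Pearson interval covers counting error only and takes the values to be reads. The targeted gene Zc3h12b, which encodes Regnase-2, had 47 reads in Control and 59 in CKO, a log2 ratio of -0.25 (95% interval -0.83 to 0.33). A lower level of this mRNA was therefore not detectable at this depth, and its reads do not serve as a check of the labels.

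Nearly all amino acids filtered by the glomerulus are recovered in the proximal tubule, whose early part is called S1 and S2 and whose late, straight part is called S3. Sodium-coupled and exchange carriers in the apical brush border take amino acids up from the filtrate, and other carriers in the basolateral membrane pass them to the blood. Several are heterodimers of a light subunit that transports and a heavy subunit that brings it to the membrane, and inherited defects of these genes cause cystinuria, Hartnup disease, lysinuric protein intolerance and dicarboxylic aminoaciduria.

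As a share of each library's total, which takes the totals as equal, the family held fewer reads in CKO. The 10 genes together held 148948 reads in Control, 0.383% of the library, and 127104 in CKO, 0.292%. Without Slc7a13 the other 9 held 114889 reads (0.296%) and 120480 reads (0.276%). Slc7a13 went from 22.9% of the family's reads to 5.21%.

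At the median gene ratio, 7 of the 10 carriers had log2 ratios below 0 and 3 above, whereas with equal library totals or with the values as deposited 5 were below and 5 above, and with CKO scaled to proximal tubule markers 3 were below and 7 above. At the median gene ratio 60.1% of the 7731 genes with at least 1000 reads in 1 library were also below 0, and 48.3% of the 17469 with at least 10 scaled reads, so the 7 of 10 lie near the share of other abundant genes. At least 2-fold lower were 2 of 10, Slc7a13 and Slc6a20b, where 5.35% of the 17469 genes were, and 4.18% of the 7731. The members were chosen with earlier results of these data known, so this count is not independent of the choice. At least 2-fold higher were 0 of 10, beside 13.4% and 4.89% of these genes. All 10 carriers exceeded both read minimums. The median log2 ratio of the 10 was -0.45, and -0.26 without Slc7a13, beside 0.022 over the 17469 genes and -0.10 over the 7731. The scaling matters for all such values, and the values as deposited also keep the floor. The median of the 17469 genes moved to 0.44 with equal totals, to 0.59 as deposited and to 0.89 with the tubule marker scaling. The genes at least 2-fold higher and lower were 2334 and 934 at the median gene ratio, 3784 and 437 with equal totals, 3574 and 131 as deposited, and 7264 and 218 with tubule marker scaling. Fewer proximal tubule cells and less RNA per cell cannot be told apart in whole kidney.

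**Figure D1:**
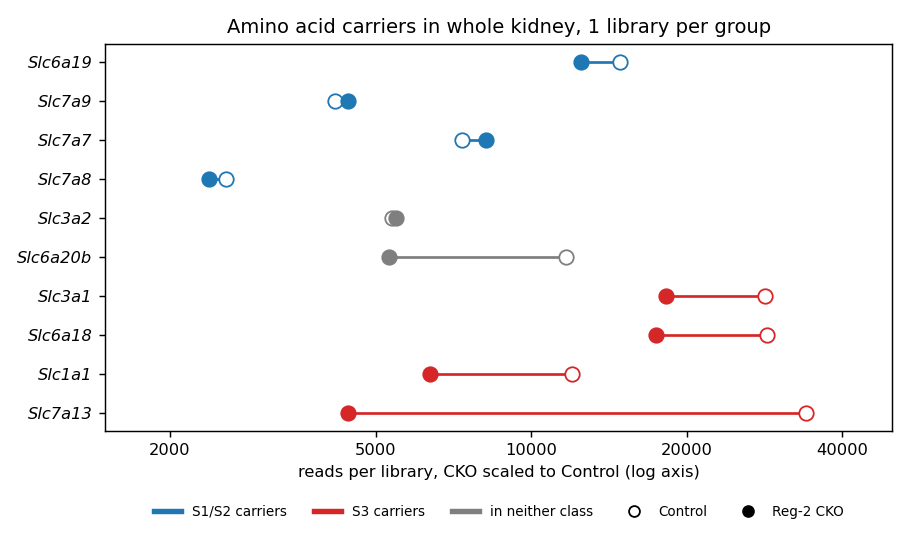
Reads of each carrier in the Control library (open circles) and the Reg-2 CKO library (filled circles, scaled by the median gene ratio), on a log axis, with colors for the segment class and 1 library per group. Slc7a13 has the longest line, from 34059 reads to 4416 scaled reads, while the circles of Slc3a2 nearly coincide at 5376 and 5480.

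Compared per kilobase of exon, Slc7a13 was the most abundant carrier in Control with 15908 reads per kilobase, followed by Slc3a1 with 12481, Slc6a18 with 6481 and Slc6a19 with 3783. Below these came Slc1a1 with 3156, Slc7a7 with 2797, Slc7a9 with 2011, Slc6a20b with 1848, Slc3a2 with 1779 and Slc7a8 with 629. The order of Slc1a1 and Slc7a7, and that of Slc6a20b and Slc3a2, turned when the longest transcript was used as the length, so these neighbors are not separated. In CKO, in scaled reads per kilobase, Slc3a1 led with 8035, then Slc6a18 with 3961, Slc6a19 with 3167, Slc7a7 with 3115 and Slc7a9 with 2134. Slc7a13 followed in place 6 with 2063, then Slc3a2 with 1813, Slc1a1 with 1675, Slc6a20b with 843 and Slc7a8 with 584. Slc6a19 and Slc7a7 changed places in CKO with the longest transcript. With either length Slc7a13 and Slc1a1 moved down the order, Slc3a1, Slc6a18, Slc7a7, Slc7a9 and Slc3a2 moved up, and Slc7a8 was lowest in both libraries.

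The main apical carriers of neutral amino acids were described first. Slc6a19 encodes B0AT1, the sodium-coupled carrier of the early tubule that is defective in Hartnup disease, and Slc6a18 encodes B0AT3, its relative of the late tubule. Slc6a19 (gene ID 74338, chr13:73679745-73700780, minus strand) had 14888 reads in Control and 18696 in CKO. Its log2 ratio was -0.26 (95% interval -0.29 to -0.23), but above 0 with equal totals (0.16), as deposited (0.33) and with tubule marker scaling (0.61). Slc6a18 (gene ID 22598, chr13:73661750-73678023, minus strand) had 28537 reads in Control and 26162 in CKO, a log2 ratio of -0.71 (-0.73 to -0.69) that was above 0 only with tubule marker scaling (0.16). These genes are neighbors on chromosome 13, 1721 bases apart and on the same strand, yet their ratios differed. Within a library, where no scaling enters, there were 0.522 reads of Slc6a19 per read of Slc6a18 in Control and 0.715 in CKO, a log2 change of 0.45 (95% interval 0.41 to 0.49). Per kilobase the ratios were 0.584 and 0.799, so the early carrier gained on the late one, which remained the more abundant in both libraries.

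Both B0AT carriers need a partner protein to reach the brush border, which in the kidney is collectrin (Cltrn). Cltrn had 60546 reads in Control and 49924 in CKO, a log2 ratio of -0.86, which was near 0 with tubule marker scaling. Of 3 accessory proteins, which also include the brush border peptidases Anpep (-0.87) and Dpep1 (-0.52), 0 were 2-fold changed. All 3 had ratios below 0, against 3 with equal totals, 2 as deposited and 1 with tubule marker scaling. Among the 7731 genes with at least 1000 reads in 1 library, 60.1% were below 0 at the median gene ratio.

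Slc6a20b belongs to the group of imino acid carriers, which take up proline. Slc6a20b (gene ID 22599, chr9:123593823-123632538, minus strand) had 11654 reads in Control and 7974 in CKO, a 2.19-fold lower value at the median gene ratio (log2 ratio -1.13, 95% interval -1.17 to -1.09). It was below 0 under all 9 settings tried, but 2-fold lower under neither equal totals (-0.71), the values as deposited (-0.54) nor tubule marker scaling (-0.26). The other settings scaled CKO by 0.657 to 0.681, so the 9 are not separate checks. Its paralog Slc6a20a, which encodes the proline carrier SIT1, had 1616 reads in Control and 1910 in CKO (log2 ratio -0.34). Reads that match both paralogs could have been assigned to either or dropped, and how many did so is not known.

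The cystine and dibasic amino acid system consists of the light subunit b0,+AT, encoded by Slc7a9, and the heavy subunit rBAT, encoded by Slc3a1; defects of either cause cystinuria. AGT1, encoded by Slc7a13, is a second light partner of rBAT in S3, where it carries cystine, aspartate and glutamate. Slc7a9 (gene ID 30962, chr7:35448727-35466034, plus strand) had 4173 reads in Control and 6641 in CKO. Slc3a1 (gene ID 20532, chr17:85028347-85064241, plus strand) had 28345 and 27372. Slc7a13 (gene ID 74087, chr4:19818727-19842213, plus strand) had 34059 and 6624. Of the system's genes, Slc7a13 had the lowest ratio, Slc3a1 an intermediate one and Slc7a9 the highest, an order that no scaling alters. The log2 ratio of Slc7a9 was 0.085 (95% interval 0.029 to 0.14), and 0.50 with equal totals, 0.67 as deposited and 0.95 with tubule marker scaling. That of Slc3a1 was -0.64 (-0.66 to -0.61), and -0.22, -0.049 and 0.23 under these scalings. Slc7a13 was 7.71-fold lower, with a log2 ratio of -2.95 (-2.99 to -2.91) that stayed between -2.97 and -2.08 over the 9 settings. It was number 13 from the lowest of the 7731 genes with at least 1000 reads in 1 library, where Slc3a1 was number 959.

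The make-up of the heterodimer genes changed within each library. There were 0.147 reads of Slc7a9 per read of Slc3a1 in Control and 0.243 in CKO, a log2 change of 0.72 (95% interval 0.66 to 0.78). For Slc7a13 there were 1.20 reads per read of Slc3a1 in Control and 0.242 in CKO, a 4.97-fold lower ratio (log2 change -2.31, 95% interval -2.36 to -2.27). In Control the late light subunit therefore far exceeded the early one, and in CKO they were almost equal, as also per kilobase. Summed over both light subunits, there were 1.35 reads per read of Slc3a1 in Control and 0.485 in CKO. Per kilobase, the ratio to Slc3a1 went from 0.161 to 0.266 for Slc7a9 and from 1.27 to 0.257 for Slc7a13. These are ratios of RNA reads and not of proteins or assembled carriers.

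**Figure D2:**
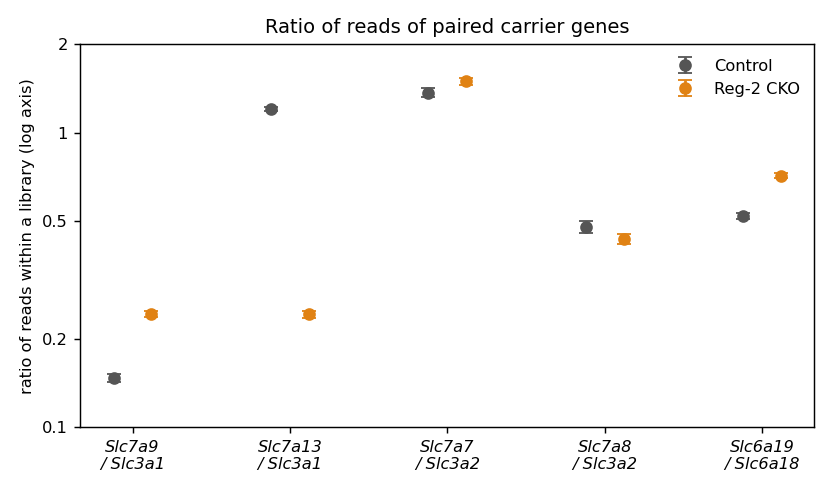
Ratio of reads of paired carrier genes within the Control library (gray) and the Reg-2 CKO library (orange), on a log axis, with 95% Clopper-Pearson intervals for counting error; 1 library per group. Slc7a13 per Slc3a1 goes from 1.20 to 0.242 and Slc7a9 per Slc3a1 from 0.147 to 0.243, while both pairs with Slc3a2 stay close to their Control ratio.

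The promoters of Slc3a1 and Slc7a9 are shown because these partner genes, which build the same carrier, had different ratios. RefSeq windows (GRCm38.p6) from 250 bases before to 50 after a transcript start were matched for 8 of the 10 carriers, 13 windows in all; Slc7a13 and Slc6a18 were not matched. Capitals mark the searched letters, CAAAGTCCA, a form of the HNF4 motif, which were looked for on both strands. The first line is chr17:85028097-85028396 on the plus strand and the second is chr7:35448842-35449141 on the plus strand, each 5′ to 3′.
Slc3a1: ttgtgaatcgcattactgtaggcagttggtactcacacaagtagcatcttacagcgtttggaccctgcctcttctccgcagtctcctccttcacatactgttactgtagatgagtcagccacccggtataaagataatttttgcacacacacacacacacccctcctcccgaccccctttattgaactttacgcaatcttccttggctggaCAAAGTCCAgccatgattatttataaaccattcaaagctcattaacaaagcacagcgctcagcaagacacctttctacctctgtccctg
Slc7a9: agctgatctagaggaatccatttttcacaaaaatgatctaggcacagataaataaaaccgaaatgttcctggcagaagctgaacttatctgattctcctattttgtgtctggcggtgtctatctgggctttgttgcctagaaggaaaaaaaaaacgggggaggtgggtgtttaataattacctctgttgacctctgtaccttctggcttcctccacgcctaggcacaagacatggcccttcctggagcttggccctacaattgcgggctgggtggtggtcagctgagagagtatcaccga
In the Slc3a1 window the HNF4 letters begin at position -39 from the start. Slc7a9 has 2 windows, of which 1 is printed, and neither holds them. Both begin after the Slc7a9 gene start at 35448727, so bases before that start were not searched. The HNF4 letters were in 1 of the 13 carrier windows and in 156 of all 32851 windows (0.475%). The motif was chosen after values or sequences were seen, so these counts are not a test. A part of HNF4 factors in the carrier ratios was not tested. A match describes the letters of a window and is not a measured binding site. Hnf4a, which encodes a factor of this family, had 38137 reads in Control and 28756 in CKO (log2 ratio -0.99). Of 3 tubule transcription factors, Hnf4a, Hnf4g (-0.54) and Maf (-0.78), 0 were 2-fold lower. Hnf4a did pass 2-fold with the column minimum as floor or the median log2 ratio set to 0 (-1.01 in each). All 3 of 3 were below 0, against 3 with equal totals, 2 as deposited and 1 with tubule marker scaling. At the median gene ratio, 48.3% of the 17469 genes with at least 10 scaled reads were below 0, and 60.1% of the 7731 with at least 1000 reads.

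The basolateral exchangers pair with the heavy subunit 4F2hc, encoded by Slc3a2. Slc7a7 encodes y+LAT1, which releases dibasic amino acids to the blood and is defective in lysinuric protein intolerance, and Slc7a8 encodes LAT2, an exchanger of neutral amino acids. Slc7a7 (gene ID 20540, chr14:54369442-54420068, minus strand) had 7356 reads in Control and 12289 in CKO. Slc7a8 (gene ID 50934, chr14:54722215-54781886, minus strand) had 2569 and 3577. Slc3a2 (gene ID 17254, chr19:8706882-8723369, minus strand) had 5376 and 8220. All of them stayed near the median gene. Their log2 ratios were 0.16 (95% interval 0.11 to 0.20) for Slc7a7, -0.11 (-0.18 to -0.034) for Slc7a8 and 0.028 (-0.022 to 0.078) for Slc3a2, so that the interval of Slc3a2 included 0. Slc7a7 and Slc3a2 were above 0 under all 9 settings. Slc7a8 was below 0 in 6 and above in 3, namely equal totals (0.31), as deposited (0.48) and tubule marker scaling (0.76). Those 6 scaled CKO by 0.657 to 0.681, so they are nearly the same scaling.

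Light to heavy ratios on this side moved little. There were 1.37 reads of Slc7a7 per read of Slc3a2 in Control and 1.5 in CKO (log2 change 0.13, 95% interval 0.063 to 0.19). For Slc7a8 these were 0.478 and 0.435 (log2 change -0.14, -0.22 to -0.047). The 3 basolateral members had a median log2 ratio of 0.028 and the 7 apical members -0.71, a gap of 0.74 that no scaling alters; these groups of membrane sides were formed after the values were seen.

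Slc1a1 encodes EAAC1 (EAAT3), the apical carrier of glutamate and aspartate, whose loss causes dicarboxylic aminoaciduria. Slc1a1 (gene ID 20510, chr19:28835135-28913960, plus strand) had 11991 reads in Control and 9549 in CKO, a log2 ratio of -0.91 (95% interval -0.95 to -0.87), which was below 0 under all 9 settings and reached -0.045 with tubule marker scaling. Slc1a1 and Slc7a13, the carriers of acidic amino acids in the family, thus both had lower values, Slc1a1 by 1.88-fold and Slc7a13 by 7.71-fold at the median gene ratio.

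**Figure D3:**
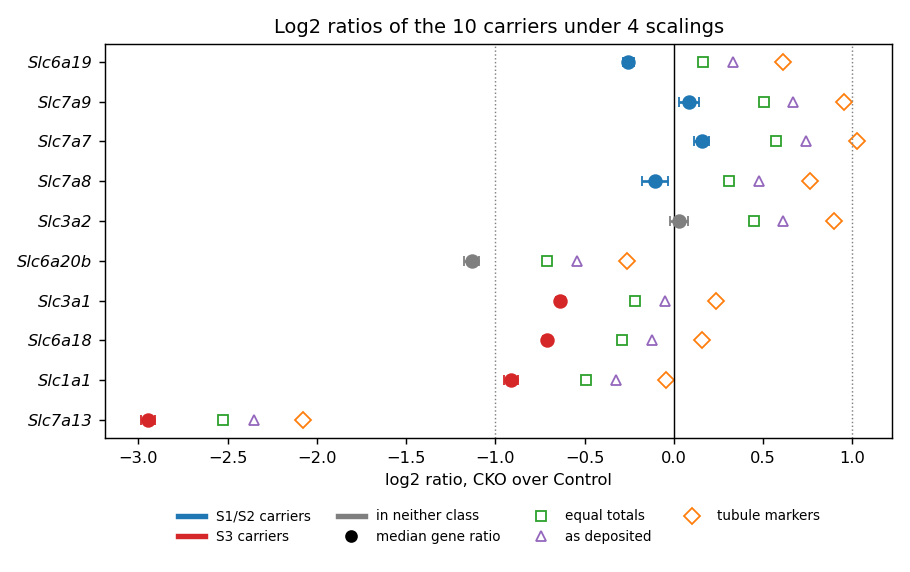
Log2 ratio of CKO over Control for the 10 carriers, filled circles at the median gene ratio with 95% counting intervals and open symbols under 3 other scalings; dotted lines mark 2-fold and 1 library stands behind each group. Slc7a13 lies at -2.95 and below -2 under every scaling drawn, Slc7a7, Slc7a9 and Slc3a2 lie above 0 under each, Slc6a19 and Slc7a8 are below 0 only at the median gene ratio among those drawn, and Slc3a1 and Slc6a18 cross 0 with tubule marker scaling.

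Early and late carriers were then compared. Slc6a19, Slc7a9, Slc7a7 and Slc7a8 were taken as S1/S2 carriers and Slc7a13, Slc3a1, Slc6a18 and Slc1a1 as S3 carriers, with Slc3a2 and Slc6a20b in neither class. The S1/S2 carriers held 28986 reads (0.0746% of the library) in Control and 41203 (0.0945%) in CKO, while the S3 carriers held 102932 (0.265%) and 69707 (0.160%). Log2 ratios ran from -0.26 to 0.16 in S1/S2 carriers, with a median of -0.011, and from -2.95 to -0.64 in S3 carriers, with a median of -0.81. The ranges did not overlap and were 0.38 apart. Of the 7731 genes with at least 1000 reads in 1 library, 12.4% lay below Slc3a1, the highest S3 carrier. Below Slc6a19, the lowest S1/S2 carrier, lay 35.3%. The classes also differ in membrane side, since the S3 carriers are all apical while Slc7a7 and Slc7a8 are basolateral. The apical Slc6a20b, in neither class, had -1.13. The part of membrane side in this gap was not tested. The difference of the class medians was -0.80, and -0.70 without Slc7a13, and neither depends on the scaling between libraries. In direction, the S1/S2 carriers were 2 below and 2 above 0, but 4 of 4 above with equal totals, as deposited and with tubule marker scaling. Their medians there were 0.41, 0.57 and 0.86, slightly below those of the 17469 genes (0.44, 0.59 and 0.89). These signs therefore go with the shift of all genes. The S3 carriers were 4 of 4 below 0 except with tubule marker scaling, when 2 were.

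Marker genes of the segments gave a similar order with a wider spread. Whether these markers or the S3 carriers also differ between male and female kidney was not examined. The 6 male-biased genes given below had a median log2 ratio of -3.12, so segment and sex bias are not separated here. The 6 S1/S2 markers had a median log2 ratio of -0.37, from -1.62 for the organic anion carrier Slc22a6 (50329 reads in Control, 24475 in CKO) to 0.41 for the lactate carrier Slc5a12 (25259 and 50338). The 5 S3 markers had a median of -1.87, and 4 of 5 were 2-fold lower (3 of 5 as deposited and with tubule marker scaling): Cyp7b1 (-3.99), Slc22a30 (-2.52), Atp11a (-1.87) and Slc5a8 (-1.53), with Slc22a13 at -0.45. The difference of the marker medians was -1.5, beside -0.80 in the carriers, but the marker ranges overlapped. The S3 markers together went from 125245 to 48654 reads and the S1/S2 markers from 146254 to 145504. The S1/S2 marker median lay above 0 with equal totals (0.048), as deposited (0.21) and with tubule marker scaling (0.50). In the same order the S3 marker median was -1.45, -1.28 and -1.0, and the median of the 17469 genes 0.44, 0.59 and 0.89.

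**Figure D4:**
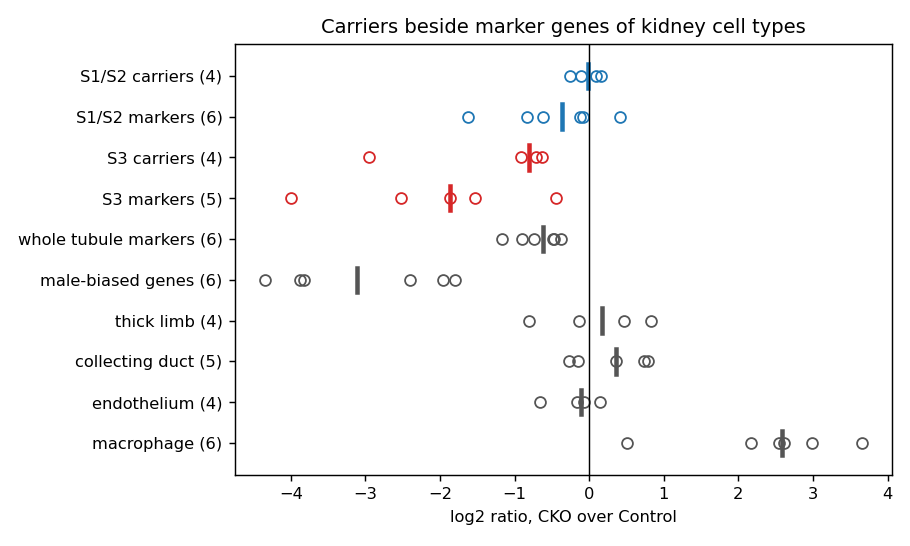
Log2 ratio of CKO over Control, at the median gene ratio, of single genes (circles) in the carrier classes and in marker lists, with the list median (bar) and the number of genes in brackets; 1 library per group. S3 carriers (median -0.81) lie apart from S1/S2 carriers (-0.011), and S3 markers (-1.87) reach lower than S1/S2 markers (-0.37). With equal totals the median of S1/S2 carriers is 0.41 and that of S3 carriers -0.39, beside 0.44 over the 17469 genes.

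General proximal tubule markers were abundant in both libraries, with 103389 reads of megalin (Lrp2) in Control and 82681 in CKO. The 6 general markers summed to 376941 reads in Control and 309599 in CKO, Slc34a1 with the most reads, a log2 ratio of sums of -0.87. Singly, 6 of 6 were below 0 with a median of -0.61, from -1.17 for Slc34a1 (147064 and 98124 reads) to -0.37 for Cubn, against 5 below 0 with equal totals, 3 as deposited and 2 with tubule marker scaling. Relative to their sum, Slc7a13 was still 2-fold lower (-2.08), Slc7a7 was 2-fold higher (1.02), and Slc3a1, Slc6a18 and Slc1a1 lay between -0.045 and 0.23. That scaling was added after the values were seen.

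Other cell types also differed between the libraries. Macrophage markers were higher in 6 of 6, 5 of them 2-fold, with a median log2 ratio of 2.58 and 5787 reads in Control against 42932 in CKO, Cd74 having the most in both (2610 and 23956); the others were Lyz2 (3.66), C1qa (2.99), Adgre1 (2.55), Cd68 (2.17) and Csf1r (0.51). T cell markers were higher in 4 of 4 with few reads (44 and 267 in sum, Cd4 having the most in Control with 17 and Cd3g in CKO with 96, median 1.85, Cd3g 2.22 to Cd4 1.70), and fibroblast markers in 4 of 4 (4411 and 19385 reads, Pdgfrb having the most in Control with 1513 and Col1a2 in CKO with 7272, median 1.78, Col1a1 2.65, Col1a2 1.88, Dcn 1.69, Pdgfrb 0.48). Injured tubule markers were higher in the 4 that were measured, Lcn2 (6.45), Vcam1 (3.82), Havcr1 (3.12) and Sox9 (3.05), with 1991 and 31884 reads in sum, most from Havcr1. The floor lies 1 below the lowest value of each library, so no measured marker could be at 0. Medians lay closer to 0 in thick limb (0.17, Egf -0.81 to Cldn16 0.83), distal convoluted tubule (0.078, Pvalb -1.17 to Trpm6 0.66), collecting duct (0.35, Slc4a1 -0.27 to Aqp2 0.79), podocyte (0.082, Nphs1 -0.20 to Synpo 0.28) and endothelial markers (-0.11, Kdr -0.67 to Emcn 0.14), but with equal totals these medians were 0.59, 0.50, 0.77, 0.50 and 0.31 in the same order, and they were higher still as deposited and with tubule marker scaling, as was the median of all genes. The part of these shifts in the carrier ratios was not tested.

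Genes known to differ between male and female mouse kidney were examined beside Slc7a13. The 6 male-biased genes were all at least 2-fold lower (5 of 6 with tubule marker scaling), with a median log2 ratio of -3.12: Acsm3 (-4.35), Slco1a1 (-3.88), Kap (-3.83), Cyp4b1 (-2.41), Cyp2j13 (-1.96) and Odc1 (-1.79). Together they went from 1213020 to 164498 reads, most of them Kap (987520 and 104163). Of 4 female-biased genes, Cyp4a14 (3.45), Prlr (3.04) and Slc7a12 (2.53) were higher and Slc22a7 (-4.42) was lower. The Y-linked genes Ddx3y (1920 and 2805 reads), Eif2s3y (2129 and 3798), Kdm5d (737 and 1263) and Uty (950 and 1849) were present in both libraries, with log2 ratios from -0.038 to 0.38. These directions held with equal totals and as deposited, except for Ddx3y, which was then above 0. Their part in the ratio of Slc7a13 was not tested.

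The other amino acid and peptide carriers were examined beside the 10. Of 28 listed, 26 were in the table, 16 with log2 ratios above 0 and 10 below, where 48.3% of the 17469 genes were below. Above 0 were 19 with equal totals, 22 as deposited and 25 with tubule marker scaling, under which the median of all genes moves up as well. Their median was 0.39, beside -0.45 in the 10 tubule carriers and 0.022 over the 17469 genes. At least 2-fold higher were 7 of 26, where 13.4% of all genes were, and lower 1 of 26, where 5.35% were. With tubule marker scaling 16 were 2-fold higher and 0 lower, with equal totals 10 and 1, and as deposited 9 and 0. Of all 17469 genes, 7264 were 2-fold higher and 218 lower with tubule marker scaling. These all-gene counts were 3784 and 437 with equal totals, and 3574 and 131 as deposited. Of the 26, 6 were 2-fold higher with the column minimum as floor, with the median log2 ratio set to 0 and with a pseudocount of 10. Slc7a12, a kidney relative of Slc7a13, was highest with 537 reads in Control and 4668 in CKO (2.53, 95% interval 2.41 to 2.67). Slc7a5 (LAT1) had 53 and 283 reads (1.81) and Slc7a6 (y+LAT2) 156 and 776 (1.72); like Slc7a7 and Slc7a8, they pair with Slc3a2. The cationic carrier Slc7a1 had 254 and 1004 reads (1.39), and Slc7a2 had 83 and 251 (1.0). The glutamine carriers Slc38a2, with 1926 and 7211 reads (1.32), and Slc38a1, with 110 and 376 (1.18), were also higher. The peptide carrier Slc15a1 was lowest, with 68 reads and 32 (-1.63), and the taurine carrier Slc6a6 had the most reads, 15238 and 30142 (0.40).

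**Figure D5:**
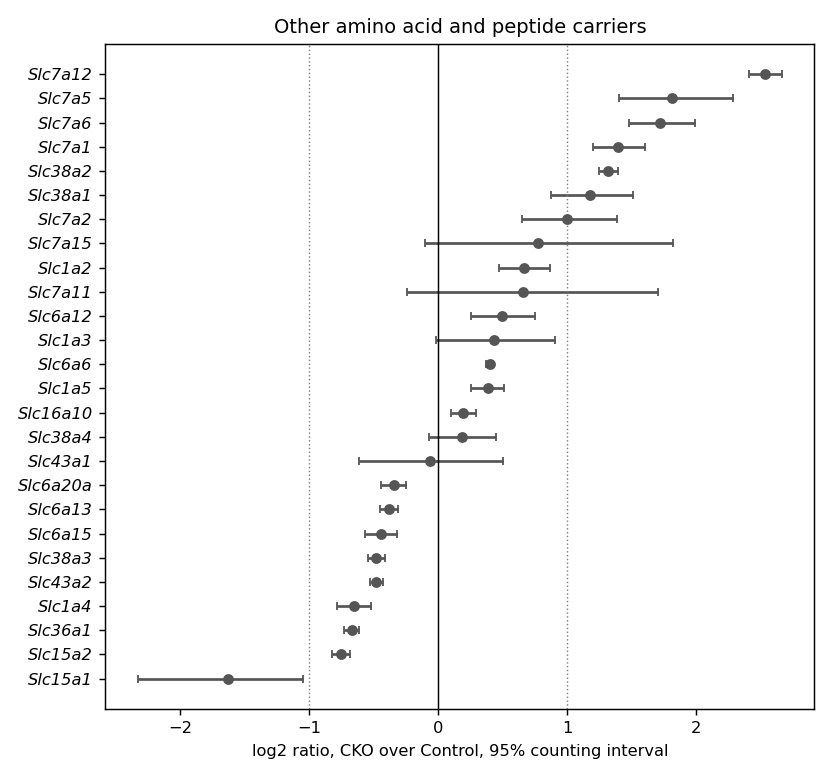
Log2 ratio of CKO over Control, at the median gene ratio, of the 26 other amino acid and peptide carriers measured, with 95% counting intervals; dotted lines mark 2-fold and 1 library stands behind each group. Slc7a12 is highest at 2.53 and Slc15a1 lowest at -1.63, and of the 26 genes 16 lie above 0, which becomes 19 with equal totals. With equal totals the median of the 17469 genes is 0.44.

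Likeness to a carrier was measured as the distance in log2 ratio over these 2 libraries, among the 7731 genes with at least 1000 reads in 1 of them. The 5 genes nearest to Slc7a13 (-2.95) were Inmt (-2.97), Ccl28 (-2.87), Snx31 (-2.86), Akr1c14 (-3.06) and Angptl7 (-3.17), and only 3 genes lay within 0.1 of it. The 5 nearest to Slc3a1 were Myo15b, Rmdn3, Ndufa9, Med28 and Aup1, all between -0.64 and -0.63, but 567 genes lay within 0.1. These counts follow from where the values lie, Slc7a13 being number 13 from the lowest of the 7731 genes and Slc3a1 number 959. They are therefore not a separate result. Ccl28 (1699 reads in Control, 348 in CKO) and Snx31 (1144 and 235) reached 1000 reads in Control only.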

How the data were processed

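Whole-kidney RNA was made into libraries by the authors with a stranded mRNA kit and sequenced with reads of about 100 bases. Alignment with STAR 2.7.3a, counting with HTSeq and normalization with DESeq2 were done by the authors, and the build in the submitters' processing notes is mm10. The deposited values, whole numbers that the authors made and named normalized counts, have no fixed unit and were classed as a score, from which reads were inferred as follows. Their lowest values were 35 (Control) and 51 (CKO), and a floor of 34 and 50, the column minimum minus 1, was subtracted. That the remainder is a read count is an inference. FPKM values, which the authors made with Cufflinks 2.2.1, were not used here.

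CKO reads were scaled by the median gene ratio, and log2 ratios used a pseudocount of 1. A gene was kept if it reached 10 scaled reads in either library, and 2-fold was a rule of size. Intervals of a change in a ratio of reads used the normal approximation on the log scale. Lengths were merged exons of protein-coding GENCODE M21 transcripts; positions and promoters came from RefSeq (GRCm38.p6, the same primary assembly as mm10), positions matched by gene ID for 10 of 10 genes and promoters by symbol for 8 of 10. The text names all 10 carriers and, of 19 other lists, the highest and lowest member and those 2-fold changed with at least 100 reads in 1 library; other members named, the Y-linked list, the membrane sides and the motif were chosen after their values or sequences were seen. Some genes of these lists are not reported here. The members and lists were chosen with earlier results of these data known. Other scalings, floors, pseudocounts and filters were tried. The steps were tested on simulated data. Python 3.11.15, numpy 2.4.6, pandas 2.3.3, scipy 1.17.1 and matplotlib 3.10.9 were used.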

Additional observations from a re-analysis of the deposited data

How the results depend on the processing

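The count of carriers at least 2-fold lower, 2 at the median gene ratio, was 1 with equal totals, 1 as deposited and 1 with tubule marker scaling, in each case Slc7a13; it was 5 at 1.5-fold and 1 at 4-fold. The median log2 ratio of the 10 carriers, -0.45, was -0.41 with equal upper quartiles, -0.027 with equal totals, 0.14 as deposited, 0.42 with tubule marker scaling and -0.26 without Slc7a13. The S3 minus S1/S2 difference, -0.80, was -0.90 without Slc3a1 and -0.70 without Slc7a13. Tubule marker scaling and leaving out Slc7a13 were chosen after seeing the data. These shifts follow from the change of the scaling factor, the threshold or the members. The shifts as deposited also include the floor, which was left in. The other 13 alternatives of these 3 results, with another floor, pseudocount, scaling or centering, stayed within counting error or 1.5 times the count. Of the alternatives for single carriers, ratios of reads and counts over all genes, 71 stayed so and 33 moved; the genes 2-fold lower went from 934 to 617 with a minimum of 50 scaled reads. No paired analysis was possible because there was 1 Control and 1 CKO library. Depth limits little here, since each carrier had at least 2569 reads, while the spread between animals is unknown.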

Other observations

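Among 6 genes of the amino acid response, in which the factor ATF4 drives genes of amino acid synthesis and uptake when amino acids run short, 5 had log2 ratios above 0 and 1 below, with a median of 0.47, where 48.3% of the 17469 genes with at least 10 scaled reads were below 0 and their median was 0.022. The list's median was 0.89 with equal totals, 1.03 as deposited and 1.34 with tubule marker scaling, with 6 of 6 above 0 in each, while the median of all genes moved to 0.44, 0.59 and 0.89. Asns, which makes asparagine, had 51 reads in Control and 347 in CKO (2.16, 95% interval 1.75 to 2.64), and Chac1, which degrades glutathione, had 15 and 64 (1.45, 0.68 to 2.43). Atf4 itself had 2980 and 4433 reads (-0.012, -0.079 to 0.055), and was above 0 with equal totals, as deposited and with tubule marker scaling. Ddit3 (0.52), Sesn2 (0.42) and Trib3 (0.25) lay between these.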
